A study of Equus caballus with 45 samples.

Results

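The genes of MHC class I antigen processing were followed through equine mesenchymal stromal cells (MSC) and 3 kinds of joint cells. They were chosen by name, as the class I heavy chain MHCX1, its light chain B2M, the peptide transporter TAP1 and TAP2, tapasin (TAPBP), the immunoproteasome subunits PSMB8, PSMB9 and PSMB10, the peptide trimming enzyme ERAP1 and the regulator NLRC5. All 10 are listed among the 20881 genes of both count tables, and all 10 passed the filter of at least 10 counts in every comparison.

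The class I pathway shows samples of a cell's own proteins at its surface. Proteasomes cut proteins into peptides, TAP1 and TAP2 carry the peptides into the endoplasmic reticulum, ERAP1 trims them there, and tapasin helps load them onto the heavy chain and B2M. Interferons are known to raise the whole set, partly through IRF factors and through NLRC5, and in allogeneic MSC therapy class I is of interest because a recipient's T cells can recognise it.

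Bulk polyA RNA was sequenced from 45 cultures. MSC grown from sternal bone marrow of young adult horses gave 12 libraries, 1 for each of the donors 92, 99 and PC in each of 4 conditions: untreated, the TLR3 agonist poly I:C, the STING agonist 2′3′-cGAMP, and a label CpG that the study's text does not describe. Each agonist was given for 2 h and washed off, at 10 ng/mL by the sample labels and 10 μg/mL by the study's methods. MSC RNA was taken after another 24 h of culture. Synoviocytes, chondrocytes and blood monocyte-derived macrophages gave 11 libraries each. In each cell type, 9 of them received IL-1β with TNF-α together with medium (CM) that MSC from the horses AG1, ORC or PC had conditioned. These MSC had been left resting (resting MSC-CM), or given the TLR3 agonist (TLR-MSC-CM) or the STING agonist (STING-MSC-CM). Another received the cytokines alone and 1 received no addition. Of the medium donors, only PC is also named as a donor of the sequenced MSC. The study's methods count 3 MSC donor horses in total, and the labels do not say how AG1 and ORC relate to 92 and 99. The cytokines were at 20 ng/mL, except that the labels give 10 ng/mL for macrophages. Joint cells stood 24 h with the medium and were cultured for another 24 h without it before RNA was taken. By the study's methods each joint cell type came from 1 horse. On that account the 3 libraries under 1 medium vary by the horse that supplied the MSC and not by the horse that supplied the joint cells. The library titles name AG1, ORC or PC beside the cell type, and the study's captions call these libraries biological replicates of the joint cells. Whether the joint cells also differed by horse therefore cannot be told. The study's methods can be read as the same horse for all 3 cell types, but the labels do not say so, and if the horses differed, cell type and horse cannot be told apart.

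Counts on genes totalled 23525704 to 54103873 per library (median 31660884), and levels are given as CPM, the counts of a gene per 1000000 counts of its library. CPM carries no gene length, so levels are compared between libraries and never between genes. A count of 3 corresponded to 0.0554 to 0.128 CPM, a floor that covers counting error only because the reads carry no molecular identifiers. Libraries were checked against marker lists. Macrophages had 8818 to 12126 CPM of macrophage markers in sum, and 307 to 595 CPM of T and NK cell markers (CD3E 60.4 to 134 CPM), against at most 1.64 CPM of the latter in chondrocytes and synoviocytes. Chondrocytes had 6.12 to 101 CPM of ACAN and 15.6 to 170 CPM of COMP, while COL2A1, the main collagen of cartilage, did not exceed 0.368 CPM. Synoviocytes had at most 3.47 CPM of ACAN and 1.89 CPM of COMP. MATN3 went the other way, with a median of 0.278 CPM in chondrocytes and 2.02 CPM in synoviocytes. The sum of the chondrocyte list did not set chondrocytes apart, at 160 to 768 CPM there, 148 to 339 CPM in synoviocytes and 223 to 880 CPM in MSC. In bulk RNA, fewer cells of a type and less RNA per cell cannot be told apart.

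A library of the TLR3 agonist set stood apart. In MSC of donor 92 the agonist library had 22.3 CPM of IRF9 against 27.5 CPM untreated, while donor 99 had 199 against 27.2 CPM and donor PC 211 against 20.6 CPM. IRF9 takes part in carrying the signal of type I interferon to the nucleus. Counts of called members and medians of fitted changes on the TLR3 agonist are therefore given with and without this library. It was set apart after the values were seen, by a gene of the interferon response that is also known to raise the members. TLR3 agonist results without it are thus a description and not a separate test.

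In untreated MSC the pathway was already transcribed. B2M, MHCX1, PSMB8 and PSMB9 stood above the untreated library of the same donor in all 3 donors with the STING agonist, and by more than 3 times in donors 99 and PC with the TLR3 agonist. B2M stood at 393 CPM in donor 92, 477 CPM in donor 99 and 587 CPM in donor PC without treatment. With the STING agonist it stood at 1907, 6313 and 4246 CPM in the same order, which is 4.85, 13.2 and 7.23 times the untreated level. The TLR3 agonist libraries held 355 CPM in donor 92, 3292 CPM in donor 99 and 3585 CPM in donor PC. All 3 STING agonist libraries lay above all untreated ones, and the TLR3 agonist library of donor 92 lay below them.

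MHCX1, the class I heavy chain, differed between untreated donors, with 275 CPM in donor 92, 106 CPM in donor 99 and 87.3 CPM in donor PC. The STING agonist libraries held 1360, 1690 and 720.2 CPM, or 4.94, 16.0 and 8.25 times the untreated level of the same donor. The TLR3 agonist libraries held 278, 693 and 700.0 CPM. Donor 92, which had the highest untreated level, showed no difference with the TLR3 agonist (1.01 times) but a clear one with the STING agonist.

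PSMB8 replaces the constitutive subunit PSMB5 when an immunoproteasome is assembled. Its untreated level was alike in the donors, at 14.1, 15.3 and 13.4 CPM in donors 92, 99 and PC, and the STING agonist libraries held 62.8, 89.3 and 65.4 CPM. Under the TLR3 agonist, donor 92 had 12.5 CPM, below its untreated value, against 66.0 CPM in donor 99 and 74.9 CPM in donor PC. PSMB9, which takes the place of PSMB6, went from 4.51, 8.38 and 8.82 CPM untreated to 15.4, 34.6 and 31.1 CPM with the STING agonist, with no overlap between the groups. Under the TLR3 agonist PSMB9 stood at 3.81, 27.8 and 31.2 CPM. PSMB10, the counterpart of PSMB7, differed less, with 12.3, 28.7 and 22.7 CPM untreated and 26.6, 53.0 and 38.9 CPM with the STING agonist. It is the member whose untreated and STING agonist groups overlapped, since the treated library of donor 92 lay below the untreated library of donor 99.

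With the STING agonist the transporter genes had smaller ratios to the untreated library than PSMB8. TAP1 stood at 29.5, 47.7 and 74.1 CPM untreated, at 88.2, 133 and 162 CPM with the STING agonist and at 38.0, 75.0 and 183 CPM with the TLR3 agonist, in donors 92, 99 and PC. TAP2 stood at 54.4, 77.6 and 63.9 CPM untreated, at 115, 202 and 137 CPM with the STING agonist and at 52.7, 144 and 148 CPM with the TLR3 agonist. In both genes the STING agonist values lay above every untreated value, by 2.11 to 2.99 times within a donor. In a RefSeq annotation of a horse genome (assembly TB-T2T, not the build of the counts) the genes stand in the order TAP2, PSMB8, TAP1 and PSMB9, with TAP1 and PSMB9 overlapping, so where a read in that overlap was counted is uncertain.

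The remaining members act at the loading step and above the pathway. TAPBP, which bridges the transporter and the empty heavy chain, was at 30.7, 50.6 and 44.9 CPM untreated and at 75.2, 75.0 and 97.5 CPM with the STING agonist. ERAP1 was at 24.4, 28.6 and 37.8 CPM untreated and at 61.4, 47.8 and 81.5 CPM with the STING agonist, and it overlaps LNPEP and ERAP2 in the same annotation. NLRC5, the transcriptional coactivator of class I genes, was at 6.54, 2.82 and 10.0 CPM untreated, 17.6, 10.8 and 17.3 CPM with the STING agonist and 9.07, 7.29 and 17.9 CPM with the TLR3 agonist. Within a donor, NLRC5 with the STING agonist was 1.72 to 3.83 times its untreated level.

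**Figure D1:**
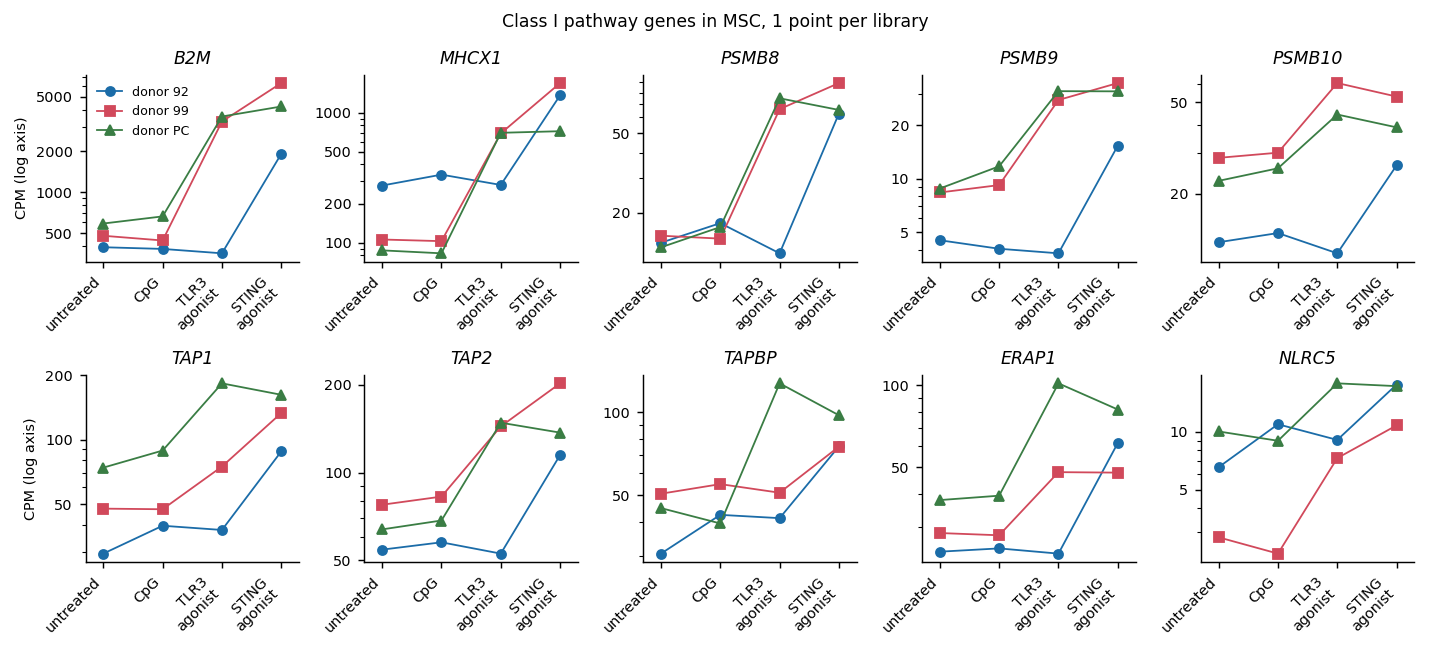
Level of each of the 10 genes in MSC, in CPM on a log axis, for the untreated, CpG, TLR3 agonist and STING agonist conditions, with 1 point per library and a line per donor. The STING agonist points of all 3 donors lie above the untreated ones in the same donor for every gene. The TLR3 agonist points of donor 92 lie at 0.844 to 1.39 times the untreated level (B2M 355 against 393 CPM).

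The members thus differed in how far they moved within a donor. With the STING agonist, the ratio to the untreated library of the same donor ran from 3.41 to 16.0 (median 4.91) over B2M, MHCX1, PSMB8 and PSMB9 and from 1.48 to 3.83 (median 2.17) over the other 6 members. This split into 4 and 6 genes was made after the values were seen, so it is a description. With the TLR3 agonist the same ratio was 3.32 to 8.02 over the 4 genes in donors 99 and PC, and 0.844 to 1.01 in donor 92. The other 6 members ranged from 1.01 to 2.83 in donors 99 and PC and from 0.895 to 1.39 in donor 92. Over all 10 members, the median log2 ratio with the TLR3 agonist was -0.03 in donor 92, 1.23 in donor 99 and 1.46 in donor PC, against 1.505, 1.71 and 1.123 with the STING agonist.

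**Figure D2:**
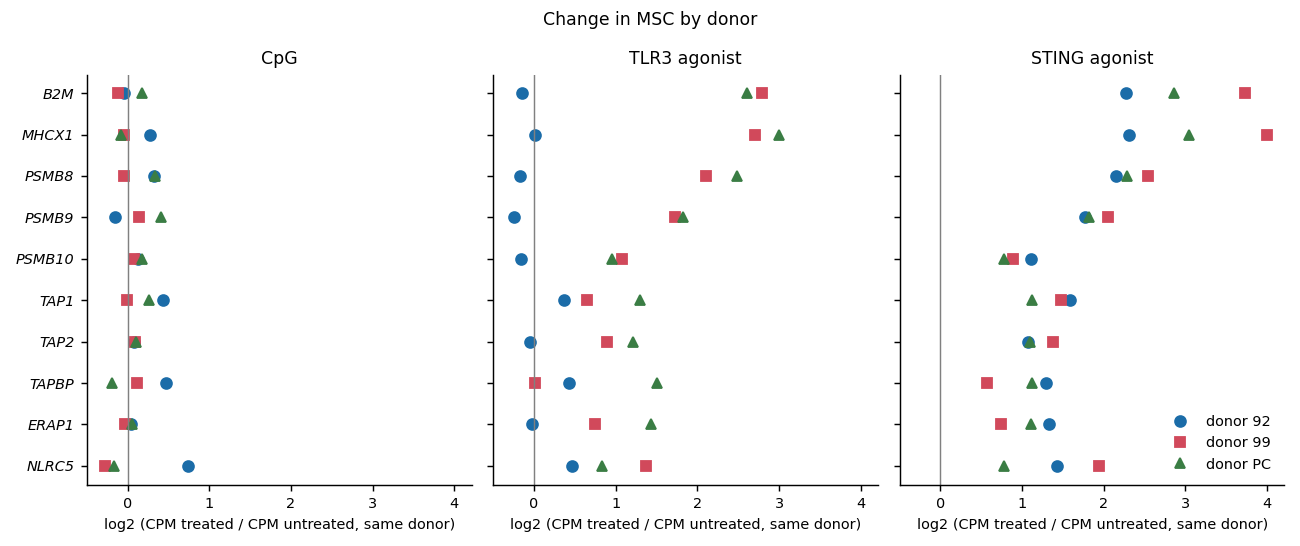
Change of each gene in MSC as the log2 ratio of CPM to the untreated library of the same donor, for CpG, the TLR3 agonist and the STING agonist, with 1 point per donor and a line at no change. With the TLR3 agonist the median of donor 92 (-0.03) stands near the line and below those of donor 99 (1.23) and donor PC (1.46), while with the STING agonist all points lie above the line. Single genes depart from the medians, such as TAPBP, whose CPM ratio was 1.34 in donor 92 and 1.01 in donor 99.

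Each agonist was compared with untreated MSC by edgeR's quasi-likelihood test over 14872 genes, without a donor term, as the study's methods state none. Both comparisons use the same 3 untreated libraries. With the STING agonist, all 10 members had a positive log2 fold change, with a median of 1.28 against 0.01 over all genes tested. No member and no gene passed the adjusted threshold of 0.05 (0% of genes), although 312 genes had an unadjusted p under 0.05. Of the members, 8 had an unadjusted p under 0.05 in the upward direction, as had 1.69% of all genes. All 10 members were higher in all 3 donors (15.2% of all genes), and 9 of 10 had no overlap between the groups (4.03% of all genes). The exact permutation test of log2(CPM + 1), two-sided, gave p = 0.1 for those 9 members, the smallest that 3 libraries against 3 allow.

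MHCX1 had the smallest p of the members with the STING agonist, at a log2 fold change of 3.01 (SE 0.60, unadjusted p = 0.000844, adjusted p = 1.00). PSMB8 was at 2.34 (SE 0.58, unadjusted p = 0.00323), B2M at 3.10 (SE 0.82, unadjusted p = 0.00479) and PSMB9 at 1.90 (SE 0.72, unadjusted p = 0.0276). The transporter genes and the regulator were alike, with TAP1 at 1.33, TAP2 at 1.21 and NLRC5 at 1.23. ERAP1 at 1.05 (unadjusted p = 0.054) and PSMB10 at 0.89 (unadjusted p = 0.18) missed even the unadjusted threshold in this test without a donor term.

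Whether these changes were called depended on the tool, on the donor term and on the TLR3 agonist library of donor 92. DESeq2 without a donor term called 3 members with the STING agonist, MHCX1 (adjusted p = 0.000132), B2M (adjusted p = 0.0072) and PSMB8 (adjusted p = 0.013), among 0.625% of all genes. The libraries of a donor pair up across conditions, since they come from 1 horse. With the donor as a block, edgeR called 0 members and 0.0134% of all genes, with a lowest adjusted p of 0.115 for TAP1, NLRC5, MHCX1 and B2M. All 10 members then had an unadjusted p under 0.05 upward, as had 824 of 14872 genes. DESeq2 with the block called 9 of 10 members, among 2.39% of all genes, and missed PSMB10 (adjusted p = 0.0717). Without the TLR3 agonist library of donor 92, which takes part in the estimate of the spread, edgeR called 2 members with the STING agonist, PSMB8 (adjusted p = 0.00565) and B2M (adjusted p = 0.0496), among 0.366% of all genes. With the block and without that library, edgeR called 9 of 10, among 1.17% of all genes, and missed TAPBP (adjusted p = 0.193), while DESeq2 called all 10 members, among 2.24% of all genes.

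With the TLR3 agonist the median log2 fold change of the members was 1.01 against 0.02 over all genes, and 1.39 without the library of donor 92. No member passed the adjusted threshold by edgeR (0% of all genes, 171 genes at an unadjusted p under 0.05) or by DESeq2 (0.323% of all genes). PSMB8 had a log2 fold change of 1.92 (SE 0.57, unadjusted p = 0.0089), MHCX1 1.91 (SE 0.57, unadjusted p = 0.0095) and B2M 2.39 (SE 0.80, unadjusted p = 0.0157), and these 3 members had an unadjusted p under 0.05, as had 1% of all genes in the upward direction. MHCX1, TAP1, TAPBP and NLRC5 were higher in all 3 donors (6.11% of all genes), and the groups of 1 member, MHCX1, did not overlap (0.867% of all genes). These margins were narrow in places, since the smallest ratio within a donor was 1.01 for MHCX1 and 1.01 for TAPBP. For MHCX1 the groups were parted only by donor 92, with 278 CPM on the agonist against 275 CPM untreated. Without the TLR3 agonist library of donor 92, edgeR called PSMB8 alone (log2 fold change 2.36, adjusted p = 0.00663), among 0.345% of all genes. With the donor block and without that library it called 7 of 10 members, among 0.778% of all genes. DESeq2 with the block called 0 members with all libraries (0.316% of all genes) and 9 without that library (1.3% of all genes). With the block and all libraries, edgeR also called 0 members. In both of these blocked fits, all 10 members had an unadjusted p under 0.05 upward. So had 351 of 14872 genes by edgeR and 310 by DESeq2.

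The agonists were also compared directly. STING against TLR3 gave a median log2 fold change of 0.31 over the members with all libraries. Without the TLR3 agonist library of donor 92 it was -0.065, with 3 of 10 members higher with the STING agonist, and 0.058 with the donor block, with 7 of 10 higher. With all libraries edgeR called no member and no gene (36 genes had an unadjusted p under 0.05, none of them a member). The direction depended on the donor for the members other than MHCX1 and B2M. Of 10 members, 10 were higher with the STING agonist in donor 92 (median log2 ratio 1.31), 8 in donor 99 (0.52) and 2 in donor PC (-0.14). Within a donor, the STING agonist library held 1.03 to 4.89 times the MHCX1 of the TLR3 agonist library and 1.18 to 5.38 times its B2M. CpG libraries stayed close to untreated ones. Their ratios to the untreated library of the same donor ran from 0.823 to 1.67 over the members, the median log2 fold change was 0.13, and edgeR and DESeq2 called no gene (46 genes had an unadjusted p under 0.05 by edgeR, none of them a member).

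**Figure D3:**
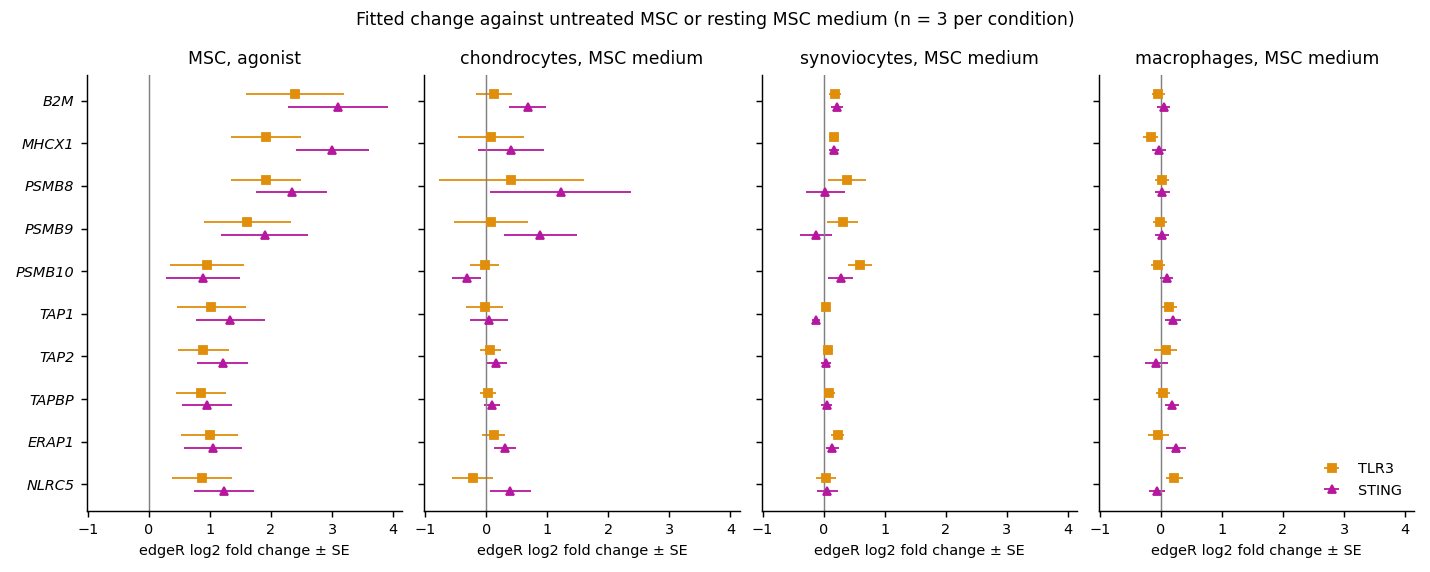
Log2 fold change by edgeR with its SE for each gene, in MSC against untreated and in synoviocytes, chondrocytes and macrophages against resting MSC-CM, for the TLR3 agonist or TLR-MSC-CM and for the STING agonist or STING-MSC-CM (n = 3 per condition). In MSC the values reach 3.10 for B2M with wide errors, while in the joint cells most stand near 0.

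The immunoproteasome subunits were also set against the constitutive subunits they replace, as a ratio of counts within a library. This ratio carries the lengths of both genes and is read only between libraries. PSMB8 over PSMB5 was 0.067 to 0.091 in untreated MSC and 0.376 to 0.419 with the STING agonist. With the TLR3 agonist it was 0.070 in donor 92, with 0.305 and 0.530 in the other donors. PSMB9 over PSMB6 was 0.028 to 0.083 untreated and 0.112 to 0.236 with the STING agonist, without overlap, whereas the ranges of PSMB10 over PSMB7 met, at 0.076 to 0.237 untreated and 0.185 to 0.288 with the STING agonist.

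Lists of other genes of the pathway gave the setting of the members. Of 7 class I heavy chains and class I-like molecules tested, 5 had a positive log2 fold change with the STING agonist, with a median of 0.29, and 3 had an unadjusted p under 0.05. Among them MHCB3 was at 17.3, 1.44 and 8.86 CPM untreated and at 36.6, 43.9 and 122 CPM with the STING agonist in donors 92, 99 and PC. EQMHCC1 was at 31.1, 4.54 and 6.57 CPM untreated and at 224, 89.0 and 44.1 CPM with the STING agonist. MHCX1, MHCB3 and EQMHCC1 are related class I heavy chain genes whose alleles differ between horses, so how reads were divided among them is uncertain. The log2 fold change with the STING agonist was 2.87 for MHCB3 and 3.06 for EQMHCC1, and with the TLR3 agonist 2.49 and 1.39.

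Of 18 constitutive proteasome subunits and activators, 17 had a positive log2 fold change with either agonist, with medians of 0.23 for STING and 0.19 for TLR3, and no member of the list passed the adjusted threshold by edgeR. Its largest values belonged to PSME2 and PSME1, the subunits of an activator cap that interferon is known to induce, with 1.11 and 0.84 with the STING agonist. Of 10 peptide loading and chaperone genes, 5 were positive with the STING agonist (median -0.04), led by ERAP2 at 1.06, the relative of ERAP1, and TAPBPL at 0.98, a relative of tapasin. The 6 cytosolic trimming peptidases had a median of 0.07, with 0.22 for LAP3 and 0.20 for THOP1. Of 18 transcription factors and interferon signalling genes, 10 were positive with the STING agonist (median 0.15) and 5 had an unadjusted p under 0.05, with IRF9 at 3.07. DESeq2 with the donor block called 3 heavy chain genes, 1 proteasome gene, 2 loading genes, 0 peptidases and 3 of the factors with the STING agonist, among 2.39% of all genes, all of them upward. IFNG had no count in any of the 12 MSC libraries, and IFNB1 had 2 counts in the TLR3 agonist library of donor PC and none in the others. These counts are from 24 h after the agonist was washed off, and earlier times were not sampled.

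A marker of macrophages moved with the members in MSC. CD68 was at 12.7, 14.9 and 12.2 CPM untreated in donors 92, 99 and PC, at 10.0, 114 and 138 CPM with the TLR3 agonist and at 53.3, 324 and 195 CPM with the STING agonist. The other 9 macrophage markers together stayed at 0.621 to 1.99 CPM in all 12 libraries, with CD163 and AIF1 at 0 counts throughout, against 5277 to 8529 CPM in macrophages.

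The genes whose pattern was most like the members were taken by Pearson's r of log2(CPM + 1) with the mean of the members. Over the 12 MSC libraries, among 11812 genes, these were OGFR (r = 0.991), TRIM21 (0.990), DDX58 (0.989), XAF1 (0.989) and CMPK2 (0.989). The libraries share 3 donors, so the values are descriptive. Between pairs of members, r over the same libraries ran from 0.111 to 0.973 (median 0.798).

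Among the joint cells, macrophage libraries held by far the highest level of every member. They also held 307 to 595 CPM of T and NK cell markers, and the part of such cells in these levels was not tested. With resting MSC-CM, B2M stood at 161 to 182 CPM in chondrocytes, 263 to 293 CPM in synoviocytes and 8103 to 8613 CPM in macrophages. MHCX1 stood at 134 to 354, 301 to 365 and 1329 to 1572 CPM in the same order. The ranges of chondrocytes and synoviocytes met for MHCX1 and did not for B2M, and macrophages lay above both for each gene.

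PSMB8 and PSMB9 had the largest ratios between macrophages and either other cell type among the members. PSMB8 had no count in 1 chondrocyte library with resting MSC-CM, which allows up to 3 counts, and at most 0.293 CPM in the others. It stood at 2.00 to 2.68 CPM in synoviocytes and 274 to 332 CPM in macrophages. PSMB9 stood at 0.119 to 0.427, 0.930 to 1.76 and 147 to 174 CPM, and PSMB10 at 3.97 to 5.72, 5.43 to 6.54 and 184 to 226 CPM in chondrocytes, synoviocytes and macrophages. PSMB8 over PSMB5 was 3.00 to 4.89 over all macrophage libraries, 0.016 to 0.053 in synoviocytes and at most 0.013 in chondrocytes.

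The other members followed the same order. TAP1 was at 14.2 to 26.3 CPM in chondrocytes, 49.1 to 52.5 CPM in synoviocytes and 497 to 514 CPM in macrophages. TAP2 was at 20.0 to 26.7, 51.0 to 56.8 and 923 to 1411 CPM, and NLRC5 at 1.53 to 2.38, 5.24 to 6.39 and 88.6 to 108.2 CPM. TAPBP and ERAP1 spanned less than TAP1, TAP2 and NLRC5. TAPBP was at 28.2 to 37.3, 38.1 to 43.9 and 136 to 171 CPM, and ERAP1 at 23.1 to 30.4, 39.8 to 44.7 and 154 to 203 CPM.

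**Figure D4:**
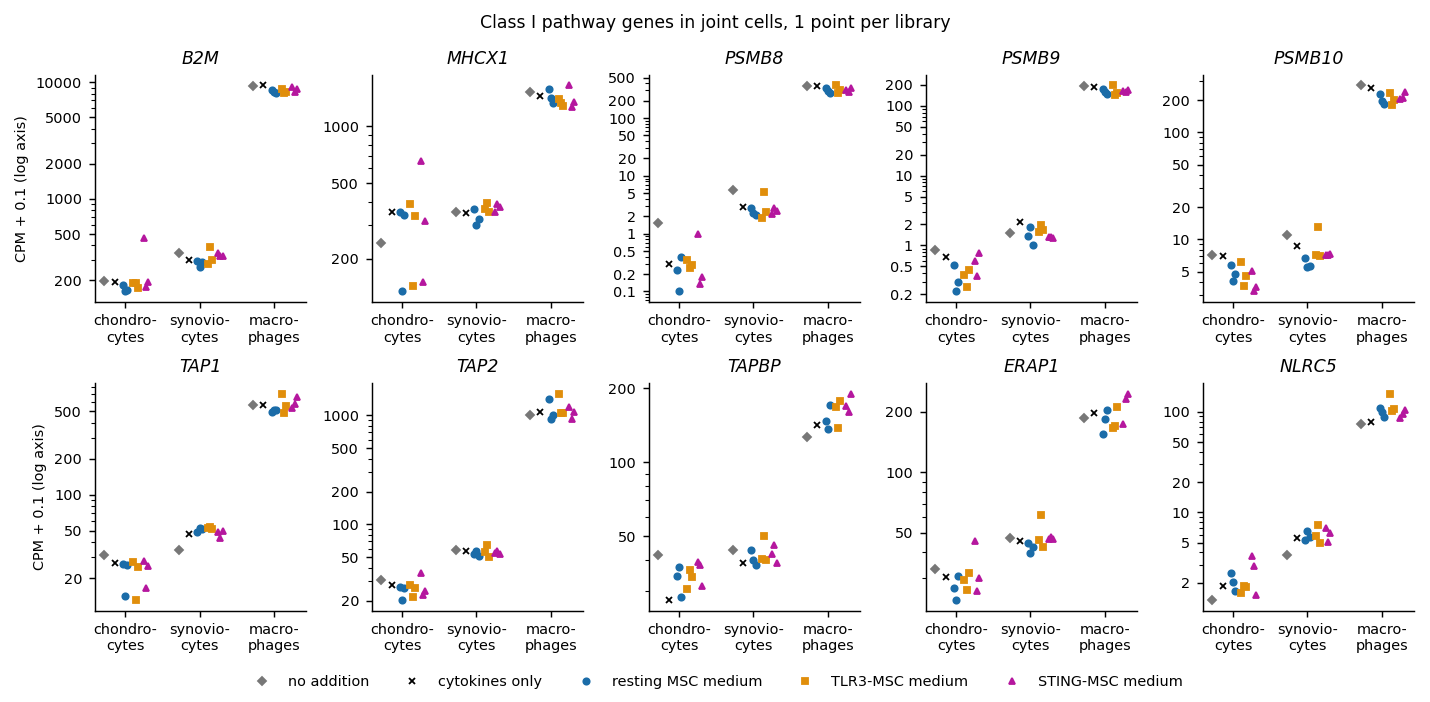
Level of each gene in chondrocytes, synoviocytes and macrophages as CPM + 0.1 on a log axis, with 1 point per library and a marker for each condition (no addition, cytokines only, resting MSC-CM, TLR-MSC-CM and STING-MSC-CM). Macrophages stand above both other cell types for every gene. Within a cell type some libraries stand apart, such as chondrocytes with STING-MSC-CM of donor AG1 (B2M 465 CPM) and synoviocytes with TLR-MSC-CM of donor ORC (PSMB10 12.9 CPM).

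By edgeR over 15599 genes, all 10 members were higher in macrophages than in synoviocytes with an adjusted p under 0.05, against 36.6% of all genes, with log2 fold changes from 1.87 for TAPBP to 6.99 for PSMB8 and a median of 4.21 (0.04 over all genes). All 10 were also higher in macrophages than in chondrocytes, again against 36.6% of all genes, from 2.17 for TAPBP to 10.92 for PSMB8 with a median of 5.45 (0.04 over all genes). Chondrocytes were lower than synoviocytes for 7 of 10 members, against 9.84% of all genes, with a median of -0.95 (0.00 over all genes). The largest of these differences was PSMB8 at -3.92 (SE 0.40, adjusted p = 0.000103), followed by PSMB9 at -2.30, NLRC5 at -1.57, TAP1 at -1.22, TAP2 at -1.16, B2M at -0.74 and ERAP1 at -0.68. MHCX1 at -0.27 (adjusted p = 0.573), PSMB10 at -0.30 (adjusted p = 0.203) and TAPBP at -0.30 (adjusted p = 0.156) were not called. DESeq2 and a block on the medium donor, alone or together, changed none of these calls. On the account of 1 horse per cell type, these p-values measure the spread between cultures and not between horses. Of the 18 other proteasome genes, edgeR called 16 higher and 1 lower in macrophages than in synoviocytes, and of the 10 loading and chaperone genes it called 3 higher and 3 lower.

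The members' pattern over all 33 joint cell libraries followed the difference between cell types. Between pairs of members r ran from 0.906 to 0.997, and the genes most like their mean, among 12451 genes, were NUP210 (r = 0.997), MCOLN2 (0.996), SCIN (0.996), DOCK10 (0.996) and EFHD2 (0.996), a description of 3 cell types rather than of 33 independent samples.

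In the joint cells, media of activated MSC changed no member by the main test. Over 3 cell types and 3 comparisons each, 90 tests of members were made and 0 passed the adjusted threshold by edgeR, while 4 had an unadjusted p under 0.05. Among all genes, the number at that level ran from 80 of 14304 in chondrocytes to 1464 of 14584 in synoviocytes, both with TLR-MSC-CM against resting MSC-CM. By edgeR no gene at all was called in synoviocytes, chondrocytes or macrophages (0% in each). DESeq2 without the block called no member either, and of all genes it called 0.0137% with TLR-MSC-CM in synoviocytes, 0.0598% with STING-MSC-CM in macrophages, 0.206% between these media in macrophages and 0% in the other 6 comparisons.

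In synoviocytes, TLR-MSC-CM against resting MSC-CM gave a median log2 fold change of 0.18 over the members (0.040 when the ORC library of this medium was left out, and 0.011 if the medium donor was also a block), and 2 of 10 had an unadjusted p under 0.05 in the upward direction, as had 4.94% of all genes. PSMB10 was at 6.54, 5.43 and 5.51 CPM with resting MSC-CM of donors AG1, ORC and PC and at 7.11, 12.9 and 6.86 CPM with TLR-MSC-CM, without overlap (6.25% of all genes had no overlap upward). Its log2 fold change was 0.60 (SE 0.20, unadjusted p = 0.00967, adjusted p = 0.494). The library of donor ORC carried most of this, and without it the value was 0.26 (unadjusted p = 0.0745). ERAP1 had 0.23 (unadjusted p = 0.0497), and 0.07 without the same library (unadjusted p = 0.399). That library also had 390 CPM of B2M against 277 and 300.2 CPM in the other TLR-MSC-CM libraries, 5.11 CPM of PSMB8 against 1.78 and 2.26 CPM, and 45.8 CPM of IRF9 against 21.8 to 32.1 CPM in the other synoviocyte libraries.

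STING-MSC-CM in synoviocytes gave a median log2 fold change of 0.06 over the members, with none at an unadjusted p under 0.05, a level that 3.65% of all genes reached upward and 3.94% downward. B2M was at 293, 263 and 288 CPM with resting MSC-CM and at 342, 323 and 321 CPM with STING-MSC-CM in donors AG1, ORC and PC, and B2M, PSMB10 and ERAP1 were the members without overlap, 3 of 10 against 8.62% of all genes. TAP1 was lower with STING-MSC-CM than with TLR-MSC-CM, at 48.4, 43.4 and 49.6 CPM against 52.6, 53.6 and 51.4 CPM, a log2 fold change of -0.16 (unadjusted p = 0.0302, adjusted p = 1.00) that 1.01% of all genes reached downward at an unadjusted p under 0.05.

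In chondrocytes, 1 library stood apart, the one given STING-MSC-CM from donor AG1. B2M was at 465 CPM there and at 161 to 196 CPM in the other 10 chondrocyte libraries. MHCX1 was at 657 CPM (134 to 388 CPM in the others), ERAP1 at 45.5 CPM (23.1 to 32.9), TAP2 at 36.0 CPM (20.0 to 30.9) and NLRC5 at 3.55 CPM (1.23 to 2.82), while the other 5 members lay within the range of the rest. IRF9 was at 63.0 CPM there against 20.7 to 32.3 CPM, and CD68 at 38.3 CPM against 9.42 to 18.0 CPM. Their part in the result was not tested.

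B2M with STING-MSC-CM had a log2 fold change of 0.68 (SE 0.30, unadjusted p = 0.0485, adjusted p = 1.00) in chondrocytes, the only member at an unadjusted p under 0.05 there without a block (0.65% of all genes upward). With the medium donor as a block, edgeR gave 4 members at that level, 3 upward and 1 downward. So had 344 and 217 of 14304 genes, and no member passed the adjusted threshold. For B2M the blocked unadjusted p was 0.00554 by edgeR and 0.0699 by DESeq2. Without the library of donor AG1 and without the block, the log2 fold change of B2M was 0.14 (unadjusted p = 0.216). The median over the members was 0.35 with all libraries and 0.01 without that one, and by donor it was 0.505 for AG1, 0.16 for ORC and -0.03 for PC. TLR-MSC-CM gave a median of 0.07, with no member at an unadjusted p under 0.05 (0.287% of all genes upward and 0.273% downward).

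The class I heavy chains of chondrocytes also differed with the donor named for the medium, whatever its treatment. MHCX1 was at 134 to 151 CPM in the 3 libraries with medium of donor ORC and at 318 to 657 CPM in the 6 libraries with media of AG1 and PC. Of the counts on MHCX1, MHCB3 and EQMHCC1 together, MHCB3 held 3.90% to 4.63% with medium of ORC and 0.370% to 0.845% with media of AG1 and PC, against 0.402% with cytokines alone and 0.474% with no addition. The labels name ORC as the cell line of the latter 2 libraries too, with no MSC medium, and their shares lay with those of the AG1 and PC media. SOX9, a cartilage transcription factor, was at 42.1 to 67.6 CPM in the ORC libraries and at 7.53 to 10.6 CPM in the AG1 and PC libraries. In macrophages MHCX1 held 41.5% to 46.3% and MHCB3 39.6% to 47.1% of these counts, and in synoviocytes MHCX1 held 83.6% to 86.3%. In MSC the share of MHCX1 was 83.9% to 85.1% in donor 92, 92.7% to 95.6% in donor 99 and 81.3% to 85.7% in donor PC over the 4 conditions. Donor 99 thus stood apart, and the ranges of donors 92 and PC overlapped. In donor PC it was 85.0% untreated, 81.4% with the TLR3 agonist and 81.3% with the STING agonist. The share of MHCB3 in that donor was 8.63% untreated and 13.8% with either agonist. In donor 99 it was 1.29% untreated, 1.94% with the TLR3 agonist and 2.41% with the STING agonist. Donor 92 went the other way with the STING agonist, at 5.33% untreated, 5.32% with the TLR3 agonist and 2.26% with the STING agonist.

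**Figure D5:**
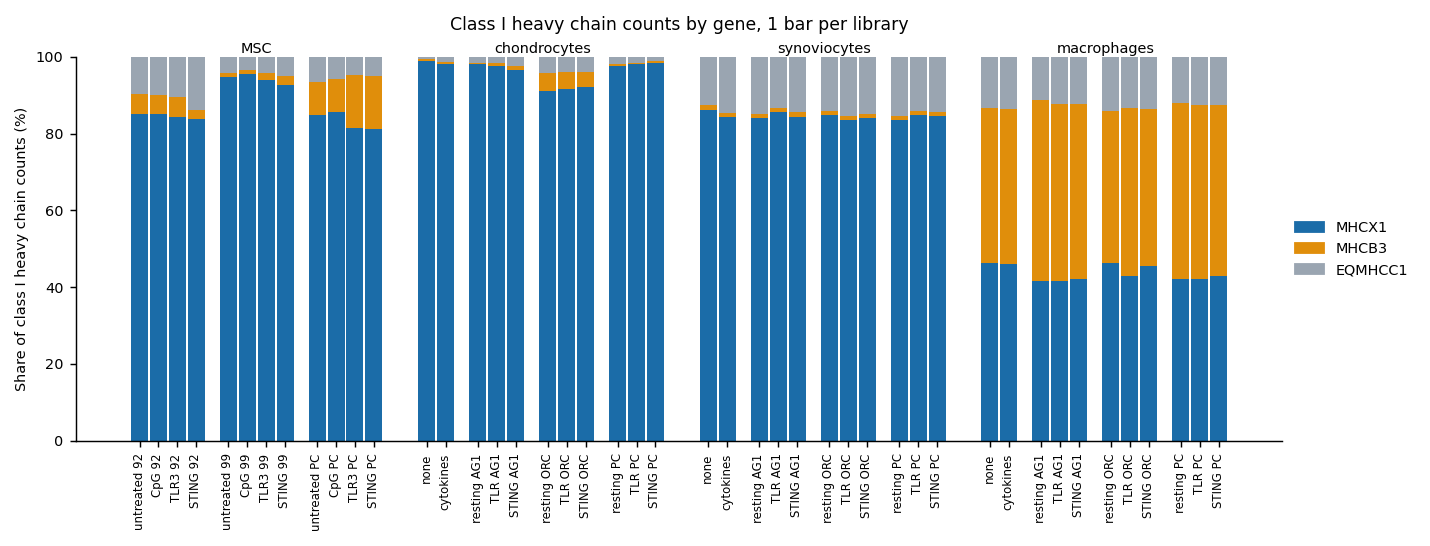
Share of MHCX1, MHCB3 and EQMHCC1 in the counts on these 3 class I heavy chain genes, in percent, with 1 bar per library. The chondrocyte bars with medium of donor ORC differ from the other chondrocyte bars (MHCB3 3.90% to 4.63% against 0.370% to 0.845% with the other media). Macrophages had the highest share of MHCB3 among the cell types (39.6% to 47.1%).

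In macrophages the members moved little with the media. NLRC5 was at 108.2, 98.9 and 88.6 CPM with resting MSC-CM of donors AG1, ORC and PC, at 152, 102 and 106 CPM with TLR-MSC-CM and at 87.0, 95.2 and 104 CPM with STING-MSC-CM. TAP1 was at 497, 514 and 512 CPM with resting MSC-CM and at 534, 572 and 664 CPM with STING-MSC-CM, the only member without overlap in that comparison (5.64% of all genes upward). The medians over the members were 0.01 for TLR-MSC-CM and 0.04 for STING-MSC-CM, with no member at an unadjusted p under 0.05 in either. Of all genes, 1.35% reached it upward and 0.777% downward with TLR-MSC-CM, and 2.29% and 2.47% with STING-MSC-CM. ERAP1 was at 166, 169 and 210 CPM with TLR-MSC-CM and at 173, 231 and 246 CPM with STING-MSC-CM. Its log2 fold change of 0.29 was not called by edgeR without the block (adjusted p = 0.748) or with it (adjusted p = 0.0900, 2.23% of all genes called), and DESeq2 with the block on the medium donor called it (adjusted p = 0.0213), among 4.98% of all genes. The TLR-MSC-CM library of donor AG1, which had the highest NLRC5, TAP1 (705 CPM), TAP2 (1587 CPM) and PSMB8 (375 CPM) of the macrophages, also had the highest sum of T and NK cell markers, 595 CPM against 307 to 383 CPM, and 14.04 CPM of IFNG. Their part in these levels was not tested.

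Whether the joint cells differed in how the members moved was tested by interaction terms. Over 6 comparisons of cell types, 60 tests of members gave 4 with an unadjusted p under 0.05 and 0 past the adjusted threshold (lowest adjusted p = 1.00). They were PSMB10 with TLR-MSC-CM in macrophages minus synoviocytes (-0.66, unadjusted p = 0.0229) and in chondrocytes minus synoviocytes (-0.65, unadjusted p = 0.0344), B2M with STING-MSC-CM in macrophages minus chondrocytes (-0.63, unadjusted p = 0.048) and PSMB9 with STING-MSC-CM in chondrocytes minus synoviocytes (0.94, unadjusted p = 0.0469). The shares of all genes at an unadjusted p under 0.05 in the same direction were 1.67%, 0.886%, 2.1% and 0.904%.

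Cultures with the cytokines alone and with no addition had 1 library per cell type and allow no test. PSMB8 was at 1.43 CPM in chondrocytes with no addition and at 0.202 CPM with the cytokines, and at 5.65 and 2.83 CPM in synoviocytes. In macrophages the ratio of cytokines to no addition ran from 0.930 to 1.116 over the members, with 5 higher and 5 lower. In synoviocytes it ran from 0.501 for PSMB8 to 1.49 for NLRC5, with 3 members higher with the cytokines and 7 lower. In chondrocytes it ran from 0.142 for PSMB8 to 1.46 for MHCX1, with 2 members higher and 8 lower.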

How the data were processed

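The deposited values are raw counts per gene, made by the authors and not normalized: reads were trimmed with Cutadapt 1.12, aligned to EquCab3.0 with STAR, counted with HTSeq 0.11.0 and limited to protein coding genes. The strand setting of the counting is not given in the sources used here. The study tested with DESeq2.

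Here CPM used the sum of all genes. MSC, each joint cell type, the 3 cell types with resting MSC-CM (9 libraries each) and, for interactions, the 27 libraries of the 3 media were fitted separately with edgeR 4.0.16 in R 4.3.3 (TMM, quasi-likelihood test, condition only), and CpG over the whole MSC set. A gene was tested where its counts summed to 10 or more over the libraries fitted, with Benjamini-Hochberg adjustment over all of them at 0.05. The SE is the log2 fold change divided by the square root of F. Alternatives were DESeq2 1.42.0, a donor block, other scalings and filters, and leaving out each library. The fits were tested on simulated data.

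Libraries were grouped by their labels. Whether donors pair libraries was checked by correlating deviations from the condition means, with the MSC donor or the medium donor taken from the labels. Libraries of the same donor gave 0.666 to 0.913 in MSC, 0.609 to 0.914 in chondrocytes, 0.389 to 0.638 in macrophages and -0.428 to 0.426 in synoviocytes. No pair of replicates agreed within sampling noise.

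All 10 members are named. Other genes named are up to 2 per pathway list and MSC comparison with the largest fold change among those with a mean CPM of at least 1, and the 5 most like the members' mean. A gene that this rule names is not reported here. Other genes, such as CD68, SOX9 and IFNG, were named after their values were seen. The members and lists were chosen with earlier results of these data known.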

Additional observations from a re-analysis of the deposited data

How the results depend on the processing

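Most values kept their direction and their side of the threshold under other scalings (RLE size factors), other filters on low counts, DESeq2, the replicate block and the exclusion of single libraries. With the STING agonist in MSC, 0 members were called in the main test, 3 by DESeq2, 9 by DESeq2 with the replicate block, and 0 to 2 when 1 library was left out. Alternatives chosen after seeing the data left out the TLR3 agonist library of donor 92 and kept the replicate block. They gave 9 members by edgeR and 10 by DESeq2 with the STING agonist, and 7 and 9 with the TLR3 agonist, for which leaving out 1 library without the block gave 0 to 1. In macrophages, STING-MSC-CM against TLR-MSC-CM gave 0 members, and 1, ERAP1, by DESeq2 with the replicate block. The block changed no other call of a member.

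Leaving out 1 library moved the members' median log2 fold change to between 1.15 and 1.69 with the STING agonist, between 0.79 and 1.39 with the TLR3 agonist, between -0.065 and 0.75 for STING against TLR3, between 0.040 and 0.25 for TLR-MSC-CM in synoviocytes, between -0.050 and 0.22 with CpG, between -0.12 and 0.16 for TLR-MSC-CM in chondrocytes, and between 0.011 and 0.44 for STING-MSC-CM in chondrocytes. With the replicate block and without the AG1 library of that medium, the last was 0.052 by edgeR and 0.049 by DESeq2. In resting MSC-CM the same range was 5.33 to 5.57 for macrophages against chondrocytes and -1.01 to -0.85 for chondrocytes against synoviocytes. In the latter MHCX1, at -0.27, ranged from -0.49 to 0.051, reversed without the resting library of donor ORC, and the cause was not tested. Interaction medians ranged from -0.16 to 0.10 for TLR-MSC-CM in macrophages minus chondrocytes, from -0.29 to -0.022 in chondrocytes minus synoviocytes, and from -0.48 to 0.15 for STING-MSC-CM in macrophages minus chondrocytes. With CPM over TMM library sizes, 4 members rather than 2 were higher with the cytokines than with no addition in chondrocytes.

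With 3 libraries per condition the exact permutation test cannot go below 0.1, and PSMB8 and PSMB9 in chondrocytes lay near the floor of 3 counts.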
